A study of Homo sapiens with 18 samples.

Results

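The comparison described here was between LNCaP cells given siRNA against KLF5 and vehicle and LNCaP cells given control siRNA and vehicle. Its members were chosen by their labels and made up 5 of the 17 libraries analysed here: siKLF5 vehicle replicates 2 and 3, and control vehicle replicates 1, 2 and 3. The labels describe 18 samples, and siKLF5 vehicle replicate 1 was not analysed here. LNCaP is an established human prostate cancer line that responds to androgen, so all values come from 1 line. In every group cells were kept for 48 h in medium with 5% charcoal-stripped serum, which is low in steroids. They then received vehicle (96% ethanol) or the synthetic androgen R1881 at 10 nM for 24 h. The study also held siKLF5 with R1881, control siRNA with R1881, and siRNA against NFYA, which encodes the NF-Y subunit that binds CCAAT boxes, with vehicle and with R1881. The labels do not give the siRNA sequences, the time from transfection to harvest or whether the libraries of a group came from separate cultures. P-values therefore measure spread between libraries, which may be technical, and each fit pools that spread over its groups.

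KLF5 is a zinc-finger transcription factor of the KLF and SP family, whose members bind GC-rich and CACCC motifs in promoters. In epithelia it is known as a regulator of proliferation and differentiation, it is marked for degradation by the ubiquitin ligases WWP1 and FBXW7, and in the prostate it has been described in both basal and luminal cells. Androgen acts through the androgen receptor, whose half-site has the letters AGAACA, and KLK3 (prostate-specific antigen) is its standard target.

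The promoters of 4 genes on which the results turn are shown first: the targeted gene, the gene with the largest named fall, a gene that was lower with siKLF5 in both treatments, and a gene that was higher in both. Each is the 200 bases before the RefSeq start site in GRCh38.p14, plus strand, chosen among promoters that lie outside annotated gene bodies: KLF5 (chr13:73054776-73054975), KLK3 (chr19:50854715-50854914), BRI3BP (chr12:124993445-124993644) and PABPC1L (chr20:44909860-44910059). Capitals mark the GC box GGGCGG, the CACCC box and the half-site AGAACA on either strand.
KLF5: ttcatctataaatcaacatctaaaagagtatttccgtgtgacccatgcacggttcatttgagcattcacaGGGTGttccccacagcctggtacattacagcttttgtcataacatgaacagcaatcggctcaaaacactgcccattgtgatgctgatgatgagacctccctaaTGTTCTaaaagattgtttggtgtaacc
KLK3: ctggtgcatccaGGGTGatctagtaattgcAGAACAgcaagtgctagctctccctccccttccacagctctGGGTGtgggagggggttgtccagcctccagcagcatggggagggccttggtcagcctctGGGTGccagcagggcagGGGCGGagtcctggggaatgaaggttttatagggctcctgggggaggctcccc
BRI3BP: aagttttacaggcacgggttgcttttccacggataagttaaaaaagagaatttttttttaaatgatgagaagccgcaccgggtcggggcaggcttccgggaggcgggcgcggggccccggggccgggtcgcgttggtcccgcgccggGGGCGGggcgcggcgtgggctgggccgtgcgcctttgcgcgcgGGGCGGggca
PABPC1L: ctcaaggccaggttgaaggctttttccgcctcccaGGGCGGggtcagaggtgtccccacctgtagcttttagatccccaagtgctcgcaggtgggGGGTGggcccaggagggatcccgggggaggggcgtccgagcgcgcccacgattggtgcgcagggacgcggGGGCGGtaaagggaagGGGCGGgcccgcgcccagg
In these 200 bases KLF5 held 1 CACCC box and 1 half-site and no GC box, and KLK3 held 1 GC box, 3 CACCC boxes and 1 half-site. BRI3BP held 2 GC boxes, and PABPC1L held 3 GC boxes and 1 CACCC box. Start sites inside an annotated gene body were not eligible. The KLF5 window therefore describes 1 start site and not any other promoter of that gene. Over the 250 bases upstream of the start, a GC box was found in 42.3% of all promoters in the RefSeq table, in 68.0% of those of tested genes, in 65.3% of 49 matched genes that were higher with siKLF5 and in 60.8% of 51 matched genes that were lower. A CACCC box was found in 53.7, 57.3, 61.2 and 70.6% of the same sets, and a half-site in 12.4, 7.19, 0 and 5.88%. A match describes letters in this window and is not a measured binding site.

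The 5 libraries held 6174633 to 6872421 estimated counts, which edgeR used for 12733 genes in 1 fit with the 6 R1881 libraries of the same table. The 2 siKLF5 vehicle libraries differed from each other more than other replicates did, with a chi-square per degree of freedom of 3.33 over genes against 1.33 to 1.91 in the other pairs of the table. Counts of calls, gene lists and properties of the called genes are therefore also given for 1 siKLF5 library at a time, and named genes where that ends their call. Expression is given as CPM, counts per 1000000 after TMM scaling. A gene passed at an adjusted p under 0.05 in edgeR's quasi-likelihood F test, and changes are log2 ratios of siKLF5 over control. Spread was pooled over all groups of the fit, so SE and p-values in vehicle rest in large part on the tighter control and R1881 libraries. They may understate the spread of the siKLF5 vehicle libraries. A fit of only the groups compared called 61 genes higher and 20 lower, beside 98 and 70 in the main fit.

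KLF5 itself was scarce without androgen. The control vehicle libraries held 33, 30 and 22 KLF5 counts, siKLF5 replicate 2 held 7 and siKLF5 replicate 3 held 22. Per 1000000 counts this was 5.34, 4.68 and 3.54 in the controls, 1.02 in siKLF5 replicate 2 (exact Poisson 95% interval 0.410 to 2.10) and 3.30 in siKLF5 replicate 3 (2.07 to 5.00), with intervals that cover counting error only. Replicate 2 lay below all controls, and the count of replicate 3 equalled that of the lowest control. The fitted log2 change was -1.08 (SE 0.346, adjusted p = 0.149) and did not pass. It was -2.14, past the test, without the library labelled siKLF5 vehicle replicate 3, and -0.46 without replicate 2. In bulk RNA, fewer cells with KLF5 mRNA and less KLF5 mRNA per cell cannot be told apart. In R1881 KLF5 was more abundant, at 27.7, 25.1 and 31.6 CPM in the controls against 11.8, 11.4 and 15.2 with siKLF5, and it passed there (log2 -1.15, SE 0.163, adjusted p = 0.000228). Both coding transcripts were detected in vehicle: ENST00000377687 had 10.9, 16.4 and 21.6 estimated counts in the controls and 5.5 and 10.9 with siKLF5, and ENST00000539231 had 22.1, 11.7 and 0 against 1.5 and 8.7.

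None of the 19 tested members of the KLF and SP family passed in vehicle, 2 had an unadjusted p under 0.05, and 1.32% of all tested genes passed. Their changes ran from -1.08 for KLF5 to 0.35 for SP6, and their median was -0.00857, beside -0.00575 for all tested genes. KLF4, a relative known from epithelial differentiation, was at 2.98, 4.16 and 4.74 CPM in the controls and 2.65 and 3.44 with siKLF5 (adjusted p = 0.620). KLF6 was at 12.8, 10.9 and 11.9 CPM against 9.94 and 13.7, so the groups overlapped. KLF13 had 59.7, 54.1 and 59.0 CPM in the controls, 57.0 in siKLF5 replicate 2 and 41.8 in replicate 3, and passed when replicate 3 stood alone (log2 -0.46), not with both (-0.22, adjusted p = 0.314). None of 19 tested genes reported as KLF5 targets passed (median -0.00241), 1 of them with an unadjusted p under 0.05. CPT1B, a carnitine transferase of fatty acid oxidation, had 4.61, 2.30 and 3.85 CPM in the controls and 5.17 and 6.60 with siKLF5 (log2 0.71, adjusted p = 0.276). The 7 tested genes for KLF5 ubiquitin ligases and stability factors did not pass either, none with an unadjusted p under 0.05, with WWP1 at -0.03, and the deubiquitinases USP3 at -0.04 and BAP1 at 0.03.

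Of the 12733 genes, 168 passed in vehicle (1.32%): 98 were higher with siKLF5 (0.77%) and 70 were lower (0.55%), and 1645 had an unadjusted p under 0.05. The changes were mostly small. The median change was 0.50 among the higher and -0.26 among the lower genes, and 17 higher genes and 1 lower gene reached 2-fold. In all 168 genes the siKLF5 libraries lay outside the range of the controls, and the rule for naming rises and falls required it. Lack of overlap in a called gene is therefore no further evidence for its change. With only siKLF5 replicate 2 in the group, 77 genes passed (39 higher, 38 lower), among them 30 of the 98 and 21 of the 70. With only replicate 3, 439 passed (201 higher, 238 lower), among them 85 and 49. Most of the calls were thus kept with replicate 3 alone, the library whose KLF5 count equalled that of the lowest control. There were 37 genes that passed in the same direction with each library alone, and 1 that passed in opposite directions. Across the alternatives, those that leave out 1 library included, 30 genes passed in each one that gave them an adjusted p, other than the fit of log2(TPM + 1) values. The latter called 0 genes higher and 2 lower, KLK3 and SYT4.

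The largest named fall was in KLK3 (ENSG00000142515, chr19:50854915-50860764), the androgen-induced serine protease known as prostate-specific antigen. It was at 65.3, 54.5 and 58.4 CPM in the controls and at 33.1 and 35.7 CPM with siKLF5. Both siKLF5 libraries lay well below every control, at 58.0% of the control level (log2 -0.79, SE 0.0701, adjusted p = 6.59e-07). Across the alternatives its change ran from -0.85 to -0.71 and passed in each. SEC62, a subunit of the machinery that moves new proteins into the endoplasmic reticulum, was at 151, 146 and 155 CPM in the controls and at 87.5 and 95.4 with siKLF5 (-0.72, SE 0.0601, adjusted p = 2.86e-07). Its main coding transcripts were both lower, ENST00000480708 with 362, 354 and 376 estimated counts against 211 and 253, and ENST00000337002 with 647, 658 and 669 against 444 and 438. BRI3BP was at 100.2, 101 and 97.0 CPM against 73.7 and 70.6 (-0.46, adjusted p = 7.72e-05). The groups were far apart relative to the spread within them in all 3 genes.

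**Figure D1:**
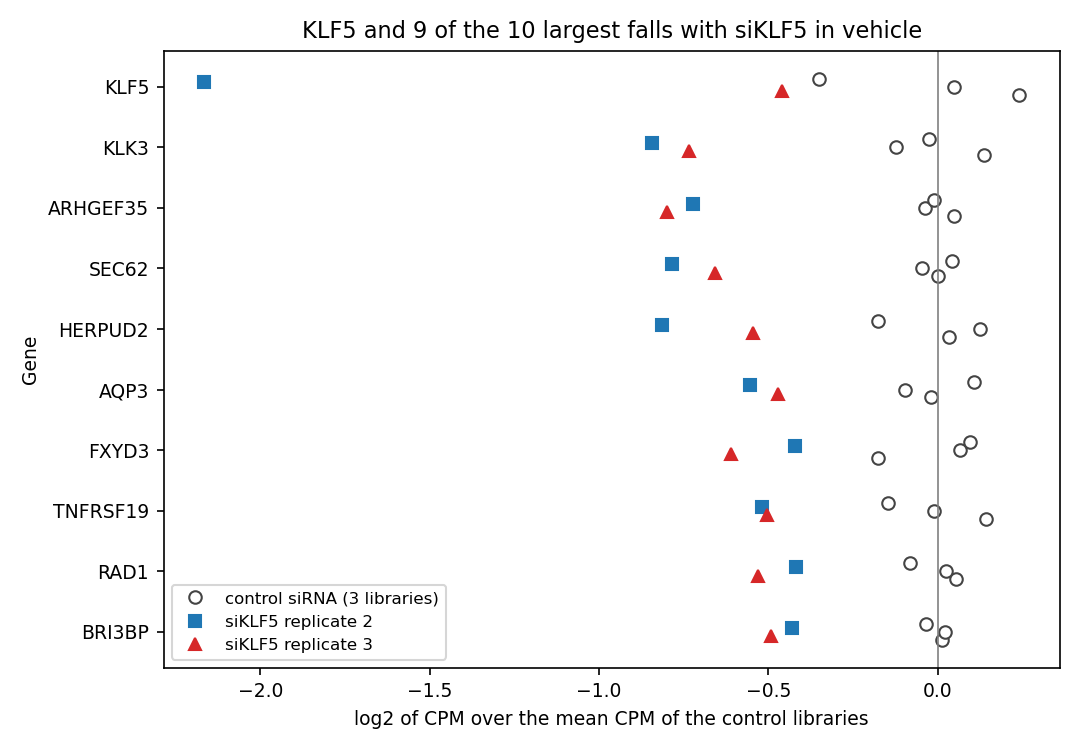
KLF5 and 9 of the 10 largest named falls with siKLF5 in vehicle. The x axis is log2 of a library's CPM over the mean CPM of the 3 control libraries. Open circles are control libraries, squares siKLF5 replicate 2 and triangles siKLF5 replicate 3. In the 9 falls both siKLF5 libraries lie left of all controls, which the naming rule required, while KLF5 differs between the 2 siKLF5 libraries.

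Most of the other named falls depended on single libraries. HERPUD2, related to a component of endoplasmic reticulum-associated degradation, had 23.8, 25.4 and 20.6 CPM in the controls and 13.3 and 15.9 with siKLF5 (-0.67, adjusted p = 0.00781). TNFRSF19, a receptor of the TNF receptor family, had 79.6, 71.6 and 65.2 CPM against 50.4 and 50.9 (-0.51, adjusted p = 0.00055). FXYD3, a regulator of the sodium pump, had 22.5, 26.5 and 27.1 CPM against 19.0 and 16.6 (-0.51, adjusted p = 0.0136). The siKLF5 libraries lay below all controls in each of these 3 genes, as the naming rule required. AQP3, a water and glycerol channel, had 19.9, 18.9 and 21.8 CPM against 13.8 and 14.6 (-0.51, adjusted p = 0.0344). RAD1, a subunit of the clamp of the DNA damage checkpoint, had 44.4, 43.5 and 40.3 CPM against 31.9 and 29.6 (-0.47, adjusted p = 0.0111). ARHGEF35 had 21.0, 19.8 and 20.2 CPM against 12.3 and 11.7 (-0.76, adjusted p = 0.00781), and is uncertain because it is a near copy of ARHGEF5 and shares reads with it. Leaving out siKLF5 replicate 3 ended the calls of ARHGEF35 (-0.72), AQP3 (-0.55), FXYD3 (-0.42) and RAD1 (-0.42), and leaving out replicate 2 ended that of AQP3 (-0.47). Leaving out control replicate 2 ended those of HERPUD2 (-0.61), AQP3 (-0.56), FXYD3 (-0.48) and RAD1 (-0.46), control replicate 3 those of AQP3 (-0.45) and FXYD3 (-0.46), and control replicate 1 that of AQP3 (-0.52). The lower gene that reached 2-fold was CADPS2, named after its values were seen, with 39, 25 and 29 counts in the controls and 16 and 14 with siKLF5 (-1.16, adjusted p = 0.0394). Its call was lost without either siKLF5 library (-1.23 without replicate 2, -1.09 without replicate 3), without control replicate 1 (-0.95) or 3 (-1.20), and when only the groups compared were fitted (-1.16).

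The rises were larger in ratio and came from less abundant genes. GOLGA8B, a golgin-like gene of a duplicated family on chromosome 15, had 9.53, 9.32 and 5.04 CPM in the controls and 21.9 and 20.8 with siKLF5 (log2 1.42, SE 0.183, adjusted p = 0.000193). Transcripts annotated as retained introns carried 90.4, 89.0 and 71.0% of its counts in the controls and 94.9 and 97.7% with siKLF5. Its neighbour GOLGA8A had 9.23, 5.74 and 6.23 CPM against 12.9 and 20.2 (1.22, adjusted p = 0.00283). In both genes the siKLF5 libraries lay above all controls, as in every called rise. Reads cannot be assigned with certainty between such near copies. MAPK8IP3, a scaffold of JNK signalling and of axonal transport, had 15.0, 12.2 and 10.2 CPM against 22.9 and 27.5 (1.01, SE 0.156, adjusted p = 0.00124). PABPC1L, a relative of the cytoplasmic poly(A)-binding protein, had 6.25, 4.73 and 3.56 CPM against 8.61 and 14.7 (1.26, adjusted p = 0.00889). HSF4, a heat shock factor, had 2.83, 3.59 and 2.67 CPM against 5.43 and 7.83 (1.12, adjusted p = 0.0392). In the last 3 genes siKLF5 replicate 3 was the highest library and replicate 2 the next.

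**Figure D2:**
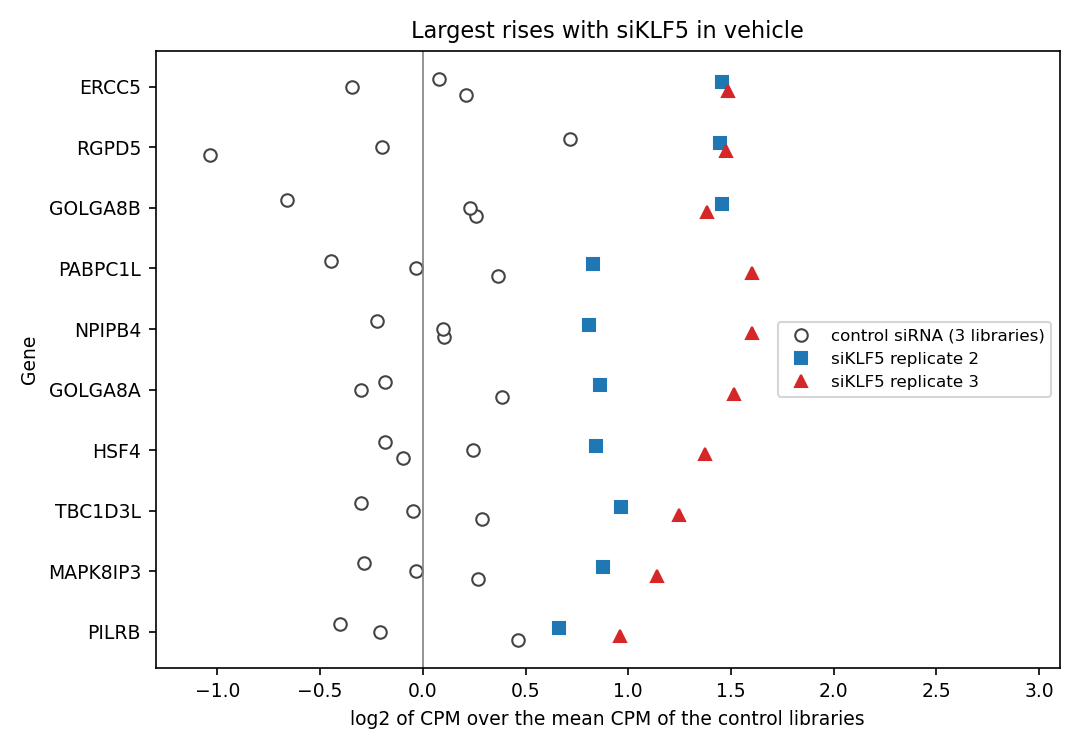
The 10 largest named rises with siKLF5 in vehicle. The x axis is log2 of a library's CPM over the mean CPM of the 3 control libraries. Open circles are control libraries, squares siKLF5 replicate 2 and triangles siKLF5 replicate 3. Both siKLF5 libraries lie right of all controls, which the naming rule required, and replicate 3 lies further right in 9 of the 10.

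Members of duplicated families made up much of the remaining named rises. NPIPB4, of the nuclear pore-interacting family on chromosome 16, had 4.47, 4.45 and 3.56 CPM in the controls and 7.29 and 12.6 with siKLF5 (1.25, adjusted p = 0.00695). TBC1D3L had 5.81, 4.59 and 3.85 CPM against 9.28 and 11.3 (1.11, adjusted p = 0.00684), and RGPD5 had 3.13, 5.59 and 10.5 CPM against 17.5 and 17.9 (1.46, adjusted p = 0.0292). Each has near-identical copies, so these values are uncertain as values of 1 gene. PILRB, an immune-type receptor gene, had 11.9, 7.46 and 6.52 CPM against 13.7 and 16.8 (0.82, adjusted p = 0.0334). ERCC5, the nuclease of nucleotide excision repair, had 3.57, 2.44 and 3.26 CPM against 8.48 and 8.66 (1.47, adjusted p = 0.0142). It shares reads with the readthrough BIVM-ERCC5, and its coding transcript ENST00000355739 had 0 estimated counts in each control and 35.2 and 44.1 with siKLF5. Leaving out siKLF5 replicate 2 ended the call of none of the 10 rises. Leaving out replicate 3, the library with as much KLF5 as the lowest control, ended 8 of the 10, those of ERCC5 (1.45), RGPD5 (1.45), PABPC1L (0.83), NPIPB4 (0.81), GOLGA8A (0.86), HSF4 (0.84), TBC1D3L (0.96) and PILRB (0.66). Without control replicate 1, RGPD5 (1.14) and HSF4 (1.07) did not pass. Without control replicate 2, ERCC5 (1.32), RGPD5 (1.37), HSF4 (1.26) and PILRB (0.72) did not, and without control replicate 3, ERCC5 (1.51), PABPC1L (1.08), HSF4 (1.04) and PILRB (0.65) did not.

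Some rises outside the naming rule stood out for their size and are named after their values were seen. TBC1D10C, a GTPase-activating protein, had 7, 12 and 7 counts in the controls and 30 and 29 with siKLF5 (1.63, adjusted p = 0.0243), and did not pass without siKLF5 replicate 3 (1.63) or control replicate 1 (1.51) or 3 (1.51). KBTBD11-OT1 had 0 counts in all 3 vehicle controls and 26 and 18 with siKLF5, at least 20.4-fold higher against a floor of 3 counts over the control group. It also had 17 counts in 1 control R1881 library and 0 in the other 5 R1881 libraries, and its call was lost whichever vehicle control was left out. The pseudogene H3F3AP4 had 8, 1 and 27 counts in the controls and 131 and 53 with siKLF5, whereas in R1881 it had 57, 38 and 78 in the controls and 6, 54 and 2 with siKLF5. Its change in vehicle (2.80) did not pass without siKLF5 replicate 2 (2.03) or control replicate 1 (2.59) or 2 (2.24). Reads of such a pseudogene cannot be told apart from those of its parent gene H3F3A with certainty.

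Mitochondrially encoded mRNAs, which specify subunits of the respiratory chain and ATP synthase, rose as a group. Of 13 tested, 11 were higher (84.6%, beside 0.77% of all tested genes) and 0 lower, with a median change of 0.50 against -0.00575 for all tested genes. MT-CO1, a core subunit of cytochrome c oxidase, was at 5386, 4728 and 4976 CPM in the controls and 6739 and 7812 with siKLF5 (0.53, SE 0.0718, adjusted p = 0.000269). MT-ND5, a subunit of complex I, was at 1293, 1078 and 1081 CPM against 1462 and 1888 (0.54, adjusted p = 0.00314). The siKLF5 libraries were above all controls, as in every called rise, and replicate 3 more than replicate 2. MT-ND3 (0.32, adjusted p = 0.0901) and MT-ATP8 (0.47, adjusted p = 0.120) did not pass. Without siKLF5 replicate 3, 7 of the 13 passed, with a median of 0.35. Among the named members MT-ND5 (0.35) and MT-ND1 (0.31) were then lost. Without replicate 2, 13 passed, with a median of 0.63.

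The nuclear-encoded subunits of the same complexes did not rise. Of 72 tested, 0 were higher and 1 was lower, NDUFA4 (-0.18), a share of 1.39% beside 0.55% of all tested genes, with a median of -0.10 and 67 of 72 below 0. NDUFA4 did not pass without siKLF5 replicate 2 (-0.17), siKLF5 replicate 3 (-0.18), control replicate 2 (-0.17) or control replicate 3 (-0.16). With siKLF5 replicate 3 alone 15 were lower, and with replicate 2 alone none was. Of 75 cytosolic ribosomal protein genes, 10 were lower (13.3%, beside 0.55% of all tested genes) and 0 higher, among them RPS27, RPS10, RPS28, RPL30, RPL7, RPL37A, RPL23, RPL6 and RPL7A. All 75 had a fitted change below 0 under each of the 3 scalings, with a median of -0.12. RPS10, a protein of the small subunit, was at 621, 632 and 656 CPM in the controls and 547 and 541 with siKLF5 (-0.23, adjusted p = 0.00283). RPS27 was at 860.1, 866 and 839 CPM against 674 and 772 (-0.24, adjusted p = 0.0111). These differences were small, and both siKLF5 libraries lay below all controls, as in every called fall. RPS27 did not pass without siKLF5 replicate 2 (-0.15) or control replicate 2 (-0.23). RPS28 did not pass without siKLF5 replicate 3 (-0.12) or control replicate 1 (-0.24), 2 (-0.21) or 3 (-0.22), and RPL30 did not without siKLF5 replicate 3 (-0.11) or control replicate 2 (-0.19) or 3 (-0.18). With library totals in place of TMM, 5 of the 75 were lower. With siKLF5 replicate 3 alone 46 were lower and 73 were below 0, and with replicate 2 alone 6 were lower and 61 were below 0.

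**Figure D3:**
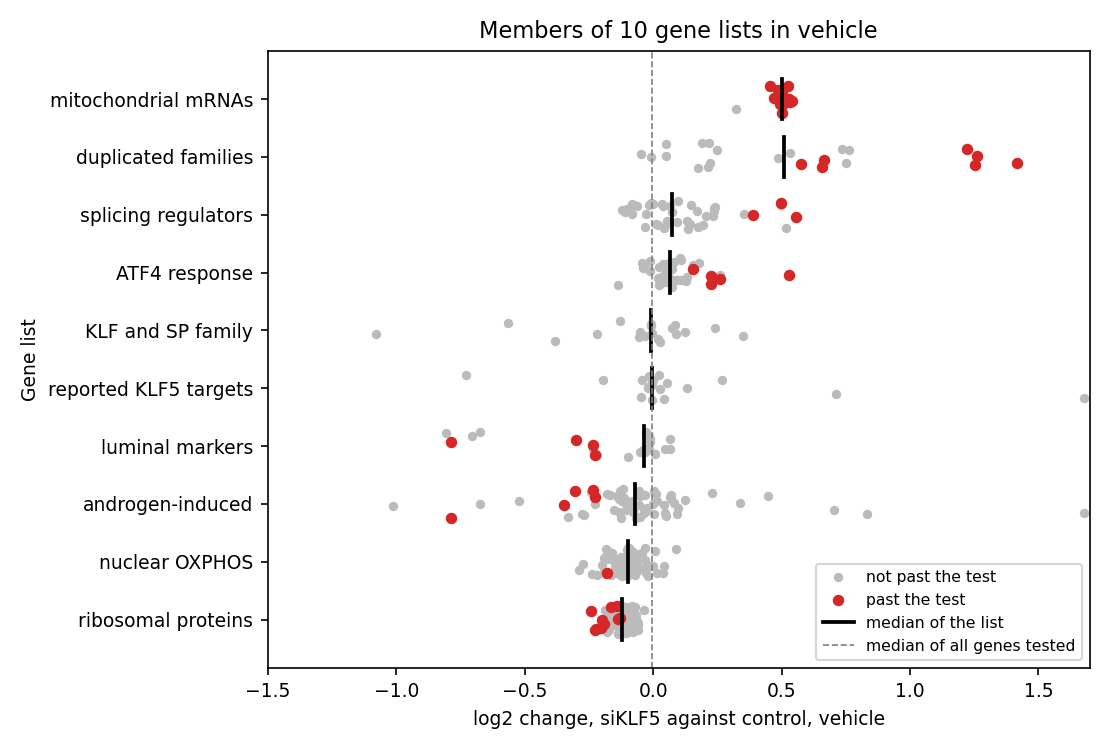
Members of 10 gene lists in vehicle, each dot a gene at its log2 change with siKLF5 over control; red dots passed edgeR's test, black bars are list medians and the dashed line is the median of all tested genes. Mitochondrial mRNAs and duplicated families lie to the right, with medians of 0.50 and 0.51, and ribosomal proteins to the left, with a median of -0.12.

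As shares of the library, mitochondrially encoded mRNAs took 2.07, 1.77 and 1.84% of estimated counts in the controls (1.89 ± 0.156, SD, n = 3) and 2.46 and 2.96% with siKLF5 (2.71 ± 0.355, SD, n = 2). Retained-intron transcripts took 2.23, 2.15 and 2.16% against 2.50 and 2.68%. Ribosomal protein genes took 6.64, 6.92 and 6.94% against 6.54 and 6.11%. None of the 3 shares overlapped between the groups, and the exact two-sided permutation test gave p = 0.1 for each, the smallest value that the 10 possible splits allow. In R1881 the mean shares with control and with siKLF5 were 1.38 and 2.49% for mitochondrial mRNAs, 1.97 and 2.34% for retained introns, and 5.43 and 5.31% for ribosomal protein genes.

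**Figure D4:**
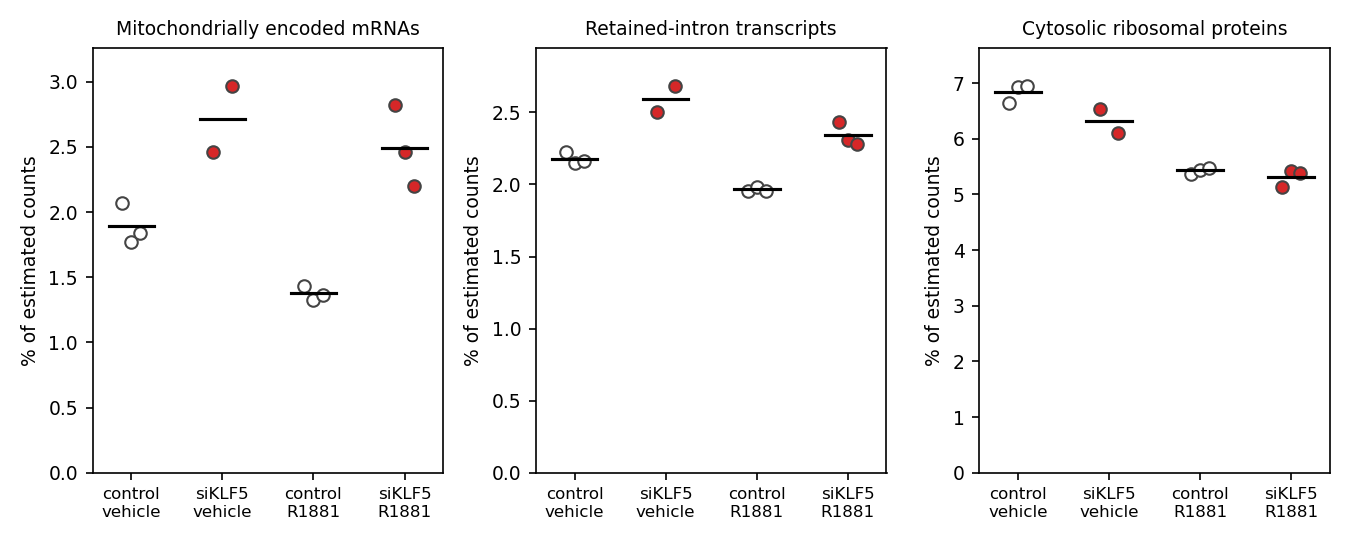
Share of estimated counts per library, in percent, for mitochondrially encoded mRNAs, retained-intron transcripts and cytosolic ribosomal protein genes. Open points are control and filled points siKLF5 libraries, bars are group means; in vehicle the first 2 shares are higher and the third is lower with siKLF5, with no overlap.

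The duplicated gene families (golgin A8, NPIP and similar families, with PABPC1L, TRIM52 and others) had 7 of 22 tested members higher (31.8%) and 0 lower: NPIPB5, NPIPA1, NPIPB3, GOLGA8A, NPIPB4, PABPC1L and GOLGA8B. Their median was 0.51, and this list was drawn up from earlier results of these libraries, so its direction is not independent evidence. The other lists were chosen with earlier results of these data known, so their shares are not fully independent of the data either. Without siKLF5 replicate 3, 2 of the 22 passed, with a median of 0.24. Of 41 RNA splicing regulators 3 were higher (7.32%, beside 0.77% of all tested genes) and 0 lower. They were the cyclins CCNL2 (39.1, 29.6 and 27.0 CPM in the controls against 43.9 and 49.9; 0.56, adjusted p = 0.0118) and CCNL1 (32.6, 31.4 and 25.7 against 41.2 and 43.2; 0.50, adjusted p = 0.00695) and the cyclophilin NKTR (62.4, 60.5 and 58.6 against 74.2 and 84.3; 0.39, adjusted p = 0.00427). The siKLF5 libraries were above all controls in each, as in every called rise. None of the 41 passed without siKLF5 replicate 3 (CCNL2 0.46, CCNL1 0.46, NKTR 0.30), and 10 passed without replicate 2. CCNL2 was also lost without control replicate 2 (0.50) or control replicate 3 (0.45).

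Genes that were higher with siKLF5 had more of their counts on retained-intron transcripts. The mean share per gene was 13.2% among the 98 higher genes, 1.45% among the 70 lower genes and 3.54% among tested genes, and 24 of the 98 (24.5%) had over 10% against 3 of the 70 and 9.17% of tested genes. Pseudogenes made up 16 of the 98 (16.3%), 1 of the 70 and 4.01% of tested genes. The main transcript had a median length of 4016 bases and a median GC content of 51.6% in the higher genes, 1640 bases and 46.5% in the lower genes, and 2952 bases and 48.7% in tested genes. The retained-intron difference was seen with either siKLF5 library alone, at a mean of 10.6% in the higher and 1.00% in the lower calls with replicate 2, and 9.20 and 3.04% with replicate 3. Median lengths were 3497 and 1781 bases with replicate 2, and 4586 and 1227 bases with replicate 3. The order of GC content was not kept: it was 50.7% in the higher and 46.2% in the lower calls with replicate 2, and 48.1 and 50.4% with replicate 3. Pseudogenes were 7 of 39 higher and 4 of 38 lower calls with replicate 2, and 20 of 201 and 6 of 238 with replicate 3. What part the larger retained-intron and mitochondrial shares of the siKLF5 libraries have in the rises of single genes was not tested.

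Androgen-responsive genes included several of the falls. Of 64 tested androgen-induced genes 5 were lower (7.81%, beside 0.55% of all tested genes) and 0 higher, among them KLK3, KCNN2, PLPP1 and TMPRSS2, and the list's median was -0.07. PLPP1, a lipid phosphatase, had 152, 150.3 and 158 CPM in the controls and 129 and 119 with siKLF5 (-0.31, adjusted p = 0.00318). KCNN2, a calcium-activated potassium channel, had 62.8, 52.8 and 55.3 CPM against 45.7 and 43.7 (-0.35, adjusted p = 0.0326). TMPRSS2, a membrane serine protease, had 90.1, 79.6 and 84.4 CPM against 73.1 and 70.8 (-0.23, adjusted p = 0.0414). The siKLF5 libraries were below all controls in these genes, as in every called fall, and beyond the 5 no androgen-induced gene passed. Without siKLF5 replicate 3, 2 of the 5 passed, and PLPP1 (-0.25), KCNN2 (-0.32) and TMPRSS2 (-0.21) did not. Without siKLF5 replicate 2, 3 of the 5 passed, and TMPRSS2 (-0.26) did not. Single controls also mattered: KCNN2 (-0.27) and TMPRSS2 (-0.19) were lost without control replicate 1, and KCNN2 (-0.37) and TMPRSS2 (-0.24) without control replicate 3. With library totals TMPRSS2 did not pass. Of 27 androgen-repressed genes 1 was lower, ACPP, which encodes prostatic acid phosphatase (167, 176 and 168 CPM against 136 and 141; -0.30, adjusted p = 0.00523). Of 28 tested genes for the androgen receptor and its cofactors 0 passed (median 0.00490), 2 with an unadjusted p under 0.05.

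Genes of the ATF4 amino acid response, which encode amino acid carriers and synthetic enzymes, had 5 of 37 tested members higher (13.5%, beside 0.77% of all tested genes) and 0 lower, with a median of 0.07. SLC6A9, a glycine carrier, was at 20.7, 25.1 and 23.7 CPM in the controls and 32.3 and 34.6 with siKLF5 (0.53, adjusted p = 0.0101). SLC7A11, the cystine carrier, was at 181, 206 and 186 CPM against 229 and 229 (0.26, adjusted p = 0.0272). SLC1A5 (0.23, adjusted p = 0.0250), SLC7A1 (0.23, adjusted p = 0.0233) and the glycyl-tRNA synthetase gene GARS (0.16, adjusted p = 0.0494) passed as well. The 2 groups did not overlap in any of the 5, as in all 168 called genes, so this adds no evidence. Without siKLF5 replicate 3, 1 of the 37 passed, and SLC6A9 (0.48), SLC7A11 (0.26) and SLC7A1 (0.23) did not, whereas SLC1A5 (0.18) was lost without replicate 2. SLC6A9 (0.45), SLC7A11 (0.22) and SLC7A1 (0.19) were lost without control replicate 1, SLC1A5 (0.19) without control replicate 2, and SLC7A11 (0.24) and SLC7A1 (0.24) without control replicate 3. GARS was lost without siKLF5 replicate 3 (0.13) and without any 1 of the controls (0.15 to 0.16).

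Among markers of cell types, 4 of 24 tested luminal markers were lower (16.7%, beside 0.55% of all tested genes), among them KLK3, ACPP and TMPRSS2, and 0 were higher. The summed level of the luminal list was 4790 to 4902 CPM in the controls and 4744 to 4765 with siKLF5, and the luminal factor GATA3 was at 0. Of 5 tested basal markers, 1 was higher, the laminin chain LAMA3 (87.2, 83.8 and 83.9 CPM against 104 and 111; 0.34, adjusted p = 0.00302). Over all tested genes 0.77% were higher, so this 1 gene is given as a value and not as a change of its list. The basal sum was 162 to 170.0 CPM in the controls and 191 to 200 with siKLF5. LAMA3 is a large part of this sum, which is therefore not separate evidence for the other basal markers. The median change of the 5 tested basal markers was 0.211 in vehicle and -0.203 in R1881. Of the 17 listed basal markers, 4 (KRT5, KRT17, KRT6A and DSG3) were at 0 in all 5 libraries. No tested neuroendocrine (4), stromal (8) or blood and endothelial (2) marker passed, with summed levels of 86.3 to 86.9, 483 to 532 and 13.3 to 14.6 CPM in the controls and 83.6 to 92.8, 515 to 548 and 12.3 to 14.2 with siKLF5. INSM1, STMN2, THY1, POSTN, CD3E, CD14, HBB and CDH5 were at 0. What part these markers have in other changes was not tested.

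In the remaining lists 0 to 2 genes of each passed. Over all tested genes 0.77% were higher and 0.55% lower, and 1 gene of a list of 18 to 34 is 2.94 to 5.56% of it, so these single genes are given as values and not as a change of their list. OGT, the enzyme that attaches N-acetylglucosamine to nuclear and cytosolic proteins, was the 1 of 18 hexosamine and glycosylation genes to pass (133, 134 and 144 CPM against 166 and 171; 0.30, adjusted p = 0.00283). Of 31 p53 target genes 2 were lower, the kinase PLK2 (49.3, 47.3 and 47.0 CPM against 35.9 and 35.1; -0.43, adjusted p = 0.00434) and SESN1 (-0.21, adjusted p = 0.0207). SESN1 was lost without siKLF5 replicate 3 (-0.18) or control replicate 2 (-0.18). Of 24 heat shock genes HSPE1 (-0.21) and DNAJA1 (-0.16) were lower. Of 34 endoplasmic reticulum stress genes SYVN1 was higher (0.27). The glycolytic LDHB (-0.16), DLD of the tricarboxylic acid cycle (-0.18) and BNIP3L of the hypoxia response (-0.19) were each the 1 member of their list to pass. SYVN1 (0.23 to 0.31) and DNAJA1 (-0.17 to -0.15) lost their call whichever of the 5 vehicle libraries was left out. HSPE1 (-0.13) was lost without siKLF5 replicate 2, LDHB (-0.12) and DLD (-0.14) without siKLF5 replicate 3, BNIP3L without either (-0.18 and -0.20), and each of these 4 also without control replicate 2 or 3. HSPE1 (-0.21), LDHB (-0.17) and DLD (-0.18) were lost without control replicate 1 as well. No tested gene passed in the lists of DNA replication and S phase (50), G2/M cell cycle (44), G1 cyclins, kinases and inhibitors (24), apoptosis (30), cholesterol (31), fatty acid synthesis (28) and oxidation (30), pentose phosphate (12), one-carbon (23), polyamine (16) and nucleotide (32) metabolism, interferon response (40), immediate early genes (22), YAP targets (15), TGF-beta (22), Wnt (23) and EGF receptor (19) signalling, adhesion (33) or autophagy and lysosome (42). Among these, the number with an unadjusted p under 0.05 ran from 0 to 8.

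The same siRNA contrast in R1881 uses none of the 5 libraries and shares only the pooled estimate of spread. There 176 genes passed (1.38%), 106 higher (0.832%) and 70 lower (0.55%). Of the 98 genes higher in vehicle, 45 were also higher in R1881, which is 45.9% of the vehicle calls and 42.5% of the R1881 calls, and 86 had the same sign. Of the 70 lower in vehicle, 13 were also lower in R1881 (18.6% of each), and 57 had the same sign. No gene passed in opposite directions. With only siKLF5 replicate 2 in vehicle, 17 of 39 higher and 12 of 38 lower calls were also called in R1881 (43.6 and 31.6%), and with only replicate 3, 53 of 201 and 14 of 238 (26.4 and 5.88%). The median changes of the 2 vehicle sets in R1881 were 0.41 and -0.09, against 0.50 and -0.26 in vehicle.

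The 13 shared falls included SEC62, BRI3BP, FXYD3, HERPUD2, SYT4, ZNF148, TARS, ACPP, PLPP1, KLK3, TNFRSF19 and RGPD6, of which SYT4, ZNF148, TARS and RGPD6 are named because they are in this count. SEC62 had 213, 201.5 and 204 CPM in the R1881 controls and 137, 118 and 123 with siKLF5 (-0.71, adjusted p = 2.71e-08), a change of the same size as in vehicle (-0.72). BRI3BP changed by -0.52 (adjusted p = 2.25e-05) and FXYD3 by -0.50 (adjusted p = 0.000124) in R1881, by edgeR's test. SYT4, a synaptotagmin of secretory vesicles, was at -0.35 in vehicle (adjusted p = 7.89e-07) and -0.31 in R1881. RGPD6 was at -0.38 in vehicle and -0.27 in R1881, while RGPD5 of the same family was higher in both. Reads cannot be assigned with certainty between such near copies, so the fall of RGPD6 is uncertain as a change of 1 gene. The vehicle call of RGPD6 was lost whichever of the 5 vehicle libraries was left out (-0.39 to -0.36). Among the rises, GOLGA8B (1.60), PABPC1L (1.40), GOLGA8A (1.38), NPIPB4 (1.30), HSF4 (1.22), RGPD5 (1.16), MAPK8IP3 (1.13) and PILRB (0.95) passed in R1881, and TBC1D3L (0.93, adjusted p = 0.0795) and ERCC5 (-0.27, adjusted p = 0.759) did not. LAMA3 (0.33) and OGT (0.38) were higher there too. By list, R1881 had 13 of 13 mitochondrial mRNAs higher (median 0.86), 8 of 22 members of duplicated families (median 0.28), 8 of 41 splicing regulators, 1 of 37 ATF4 genes (median 0.00465) and 0 of 75 ribosomal protein genes (median -0.04).

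**Figure D5:**
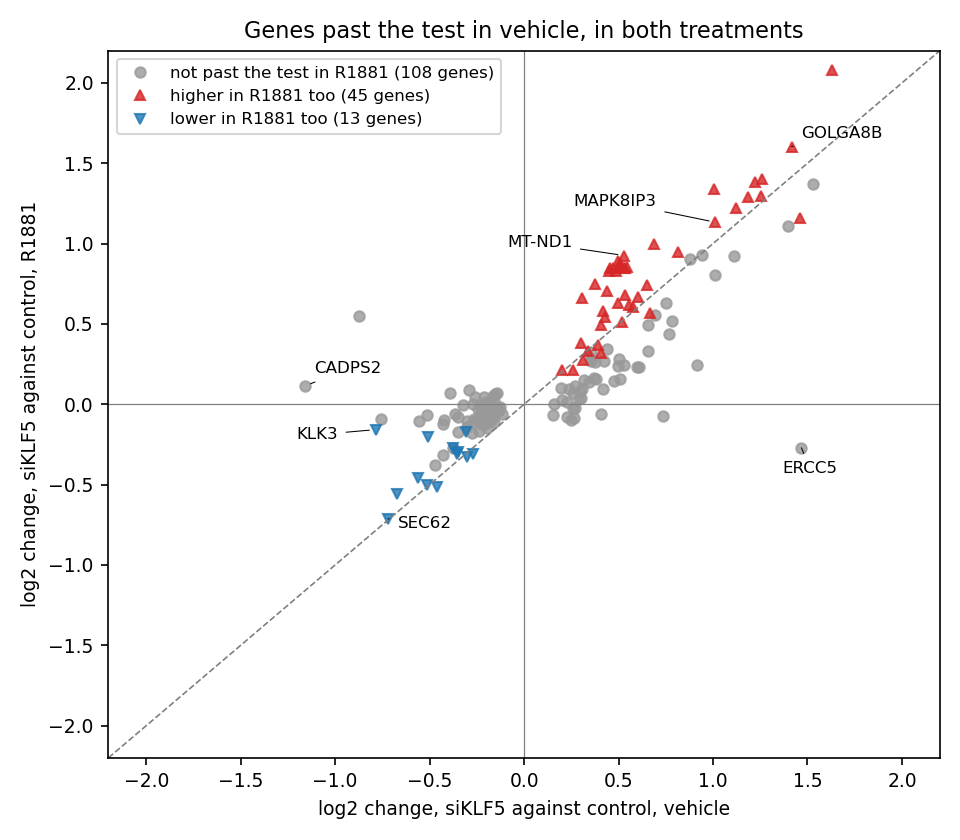
Log2 change with siKLF5 over control in vehicle (x axis) and in R1881 (y axis) for 166 of the 168 genes that passed in vehicle; KBTBD11-OT1 and H3F3AP4 lie outside the axes. Red triangles (45 genes) were higher and blue triangles (13) lower in R1881 too, grey circles (108) did not pass there, and the dashed line marks equal changes.

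The change with siKLF5 differed between vehicle and R1881 in 2 genes by the test of the interaction (0.0157% of 12733), while 854 had an unadjusted p under 0.05. KLK3 was at 3641, 3773 and 3663 CPM in the R1881 controls and 3312, 3358 and 3257 with siKLF5 (-0.16, SE 0.0344, adjusted p = 0.0185). It was lower in both treatments, and the difference between the 2 changes was 0.63 (SE 0.0783, adjusted p = 0.000752). The other gene was the readthrough ATP6V1G2-DDX39B, which did not pass in vehicle. For the other falls that did not pass in R1881, such as ARHGEF35 (-0.09) and AQP3 (-0.07), the interaction did not pass either (adjusted p = 0.388 and 0.595).

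Measured directly against siNFYA vehicle, without control libraries in the contrast, 774 of 12922 genes passed (5.99%), 470 higher (3.64%) and 304 lower (2.35%) in siKLF5 vehicle, so higher genes were 60.7% of the calls. With library totals the numbers were 573 and 229 (71.4%). KLK3 was at 83.1, 89.4 and 105 CPM with siNFYA, above the controls, and siKLF5 was below siNFYA by -1.42 (SE 0.0803, adjusted p = 1.20e-11). Against control, its change was -0.79 with siKLF5 and 0.63 with siNFYA, comparisons that share the control libraries. Genes called in vehicle were chosen on the same siKLF5 libraries that this contrast uses. Their counts against siNFYA are therefore not independent of that choice. Of the 70 genes lower with siKLF5, 23 were below siNFYA and 1, ACPP, was above it (0.20, adjusted p = 0.0458), with a median difference of -0.14. They included SEC62 (-0.59, adjusted p = 9.11e-07), BRI3BP (-0.53, 3.05e-06), RAD1 (-0.51, 0.00107), HERPUD2 (-0.48, 0.0271), FXYD3 (-0.39, 0.0261) and PLPP1 (-0.31, 0.000474) by edgeR's test. Of the 98 genes higher with siKLF5, 5 were above siNFYA (EPHX1, TBRG1, MCTP2, MYNN and SEMA6A) and 5 below it (MTRNR2L1, DDX39B, MTRNR2L8, MTATP6P1 and CCNL1), all but CCNL1 named because they are in these counts, and the median difference was -0.08. Of the 70 and the 98 genes, 8 and 3 passed against siNFYA in their own direction without siKLF5 replicate 3, and 20 and 4 without replicate 2. For GOLGA8B (-0.35, adjusted p = 0.243), MAPK8IP3 (-0.27, 0.298), MT-CO1 (-0.09, 0.553) and OGT (-0.14, 0.131) the difference between the knockdowns did not pass, which does not show that they act alike. Against control, siNFYA changed these genes by 1.77, 1.29, 0.62 and 0.44, beside 1.42, 1.01, 0.53 and 0.30 with siKLF5. The 98 higher genes had a median of 0.60 with siNFYA and 0.50 with siKLF5, and the 70 lower genes -0.11 and -0.26. As a set, the rises were thus also present with siNFYA, in comparisons that share the control libraries.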

How the data were processed

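Total RNA of LNCaP cells was column-purified and sequenced as strand-specific libraries, per the labels' protocols. Use of kallisto, Trimmomatic, FastQC, DESeq2 and GRCh38 is recorded in the submitters' processing notes, with versions not given in the sources used here. Estimated counts per gene (34912 genes) were deposited by the authors and were used here after rounding to whole numbers. TPM values and estimated counts per transcript also come from the authors' deposited tables, and TPM was used only for alternatives. All 4 tables were read, and 34846 genes were found in GENCODE release 29 (GRCh38). Replicate numbers follow label order and pair nothing.

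From the counts, edgeR 4.0.16 (R 4.3.3) with TMM scaling and filterByExpr fitted 1 coefficient per group over 11 libraries (4582804 to 6872421 counts), with quasi-likelihood F tests, Benjamini-Hochberg adjustment over 12733 genes and a threshold of 0.05. SE is the change divided by the square root of F. A joint fit of 17 libraries (12922 genes) gave siKLF5 against siNFYA. The alternatives, tried with DESeq2 1.42.0 and limma 3.58.1, are in the closing section. Genes named are the 10 largest rises and 10 largest falls among protein-coding genes that passed, did not overlap between groups and averaged at least 5 CPM in the higher one, the KLF and SP family, and up to 4 called members per list and direction. The members and the 43 lists were chosen with earlier results of these data known. On simulated counts of 12733 genes for the vehicle comparison, 100% of genes changed by log2 1.5 and 92% of those changed by -0.75 were recovered. There were 8 false calls. Every gene and group had the same simulated spread, and only more abundant genes were changed. The wider spread of the siKLF5 vehicle libraries was not simulated, nor were changes as small as most of those called. Some genes that the rule or the lists hold are not reported here. Promoters come from RefSeq. Python 3.11.15, pandas 2.3.3, SciPy 1.17.1 and matplotlib 3.10.9 were used.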

Additional observations from a re-analysis of the deposited data

Results flagged for a closer look

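In 2 genes the change with siKLF5 differed between vehicle and R1881 by edgeR's interaction test. KLK3 fell by log2 0.79 in vehicle and by 0.16 in R1881, a difference of 0.63 (SE 0.0783, adjusted p = 0.000752). It was lower with siKLF5 in both siKLF5 vehicle libraries and in all 3 siKLF5 R1881 libraries than in any control of the same treatment. ATP6V1G2-DDX39B (ENSG00000254870) had 80.2, 68.9 and 74.6 CPM in the vehicle controls and 69.0 and 53.9 with siKLF5 (-0.28, adjusted p = 0.154), against 47.2, 39.2 and 40.3 CPM in the R1881 controls and 66.5, 63.8 and 58.9 with siKLF5 (0.58, adjusted p = 0.00197). The difference of the changes was 0.86 (SE 0.133, adjusted p = 0.0120). It is a readthrough gene whose reads cannot be told apart from those of DDX39B with certainty. By edgeR's test DDX39B itself was at 0.32 in vehicle (adjusted p = 0.0156), opposite to the readthrough, and at 0.15 in R1881 (adjusted p = 0.365). Whether counts moved between the 2 genes was not tested. The interaction call of the readthrough was lost in 4 of the 11 fits that leave out 1 library, and that of KLK3 in none.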

How the results depend on the processing

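No paired analysis was possible because the label numbers run from 1 to 18 and each belongs to 1 library. Counts below are given as higher and lower. In vehicle (98 and 70), no filter gave 190 and 219, DESeq2 25 and 54, limma on log2(TPM + 1) 0 and 2, and a fit of only the groups compared 61 and 20; leaving out 1 library gave 39 to 201 and 24 to 238. The lowest counts came without siKLF5 replicate 3 (39 and 38), control replicate 3 (46 and 28) and control replicate 2 (51 and 24), and the highest without siKLF5 replicate 2. In R1881 (106 and 70) the same settings gave 220 and 168, 34 and 57, 25 and 11, and 177 and 137, and leaving out 1 library 43 to 69 and 27 to 38, with the lowest of both without siKLF5 R1881 replicate 1. For the interaction (2 genes) no filter gave 106, DESeq2 8, log2(TPM + 1) values 0 and leaving out 1 library 1 to 57, the highest without siKLF5 vehicle replicate 3. KLK3 passed there in every setting except log2(TPM + 1), whereas ATP6V1G2-DDX39B also did not pass without control vehicle replicate 1 (adjusted p = 0.0609), control R1881 replicate 3 (0.0784), siKLF5 R1881 replicate 1 (0.0637) or 2 (0.0502), and DESeq2 gave it no adjusted p. Against siNFYA (470 and 304), DESeq2 gave 332 and 126, log2(TPM + 1) values 55 and 11, only the groups compared 201 and 70, and leaving out 1 library 174 to 524 and 50 to 496. The lowest of both came without siKLF5 replicate 3 and 496 without siKLF5 replicate 2. DESeq2 gave no adjusted p to 11355 of the 12733 genes in vehicle, so these are not counted as lost. DESeq2 without independent filtering was therefore added after seeing the data, and gave 37 and 30 in vehicle, 58 and 47 in R1881, 2 for the interaction and 272 and 88 against siNFYA. In that fit AQP3, FXYD3, RAD1, RGPD5, HSF4, TBC1D3L and PILRB did not pass. The cause of these differences was not tested. Size factors by the median of ratios and library totals moved none of these counts over all genes by over 1.5 times, while library totals gave 5 in place of 10 lower ribosomal protein genes. As a share of TPM the mitochondrial difference was 1.84 percentage points in place of 0.820, and leaving out 1 library gave 0.570 to 1.07. KLF5 in vehicle also passed when no filter was used. No change of a named gene reversed past the test. Depth limits what can be said of KLF5 in vehicle, where 3 counts over the control group stand for 0.160 per 1000000, and 2 libraries limit the group.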
